A study of Mus musculus with 6 samples.

Results

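The presynaptic release machinery was described by 36 genes for synaptic vesicle proteins, calcium sensors, SNARE proteins and their regulators, Rab3 GTPases, active zone scaffolds and endocytic proteins. They were chosen by name from the 53421 genes of the count table, and 35 of them were among the 17214 genes that passed the filter on low counts. Rims1 did not pass. The RNA came from cultured cerebellar granule cells (GCs) of wildtype C57BL/6 mice at postnatal day 8. Lentivirus delivered either a hairpin that targets Ythdf2 (shYthdf2, n = 3 libraries) or a control (shCtrl, n = 3 libraries), and puromycin was used to keep the infected cells. The names of the shYthdf2 libraries carry the number of 1 hairpin, so the KD and other effects of that hairpin cannot be told apart. YTHDF2 is a reader protein that binds m6A-modified mRNA and promotes its decay. The comparison asks which presynaptic mRNAs differed in level after YTHDF2 knockdown (KD).

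A presynaptic terminal releases transmitter when a vesicle that is docked and primed at the active zone fuses with the plasma membrane. Fusion is driven by the SNARE complex, which forms from a vesicle protein and a pair of plasma membrane proteins. Synaptotagmins couple fusion to calcium, complexins hold and then assist the primed complex, and endocytic proteins recover the vesicle membrane afterwards. GCs are glutamatergic neurons whose parallel fibers form synapses on Purkinje cell dendrites, so these genes belong to the normal programme of the cells as they mature.

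The libraries held 17246821 to 21546595 counts. The library names and the sample titles contradict each other on which 3 libraries are the KD, and the names were followed. Group means computed from the counts matched those of the study's own table to within 0.1% for 923 of 923 genes under the names and for 0 with the groups exchanged, though that table may rest on the same names. If the titles were right, every direction given here would be inverted. The libraries are numbered 1, 2 and 4 in each group, and replicate 2 stood apart in both. Between replicates 1 and 4 the counts differed by a chi-square per gene of 3.69 in shYthdf2 and 5.28 in shCtrl, where counting error alone gives a value near 1. Between replicate 2 and the others it was 38.4 to 64.3. The methods call the libraries of a group independent biological replicates but do not say whether they came from separate cultures or litters, and the p-values measure the spread between these libraries. Ythdf2 itself had 501, 402 and 501 normalized counts in replicates 1, 2 and 4 of shYthdf2 and 618, 841 and 628 in shCtrl. The groups did not overlap, and the shYthdf2 mean was 67.3% of the shCtrl mean with a log2 fold change of -0.57 (SE 0.16, adjusted p = 0.125). Normalized counts are counts scaled to a common library size, and adjusted p-values come from the quasi-likelihood test of edgeR, corrected over all genes tested by the Benjamini-Hochberg method.

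The GC markers summed to 141826 to 143598 in shYthdf2 and 142311 to 159543 in shCtrl, and none of the marker genes examined was at 0 in every library. By log2 fold change, 6 of the 10 GC markers were above 0 and 4 below. The groups did not overlap for Neurod1 (-0.32, SE 0.09) and Cbln1 (-0.64, SE 0.19), both lower in shYthdf2, and for Rbfox3 (0.05, SE 0.09), which was higher. Zic1 held the largest part of the GC sum, at 60665 to 66405 normalized counts. Etv1, Gabra6, Cbln1, Cbln3 and Slc17a7 were highest in replicate 2 of both groups, and Pax6 was lowest there. Cbln3 had 959, 2240 and 980 in shYthdf2 and 290, 1811 and 276 in shCtrl, in replicates 1, 2 and 4. Markers of other cells were also present. GABAergic interneuron markers summed to 7602 to 9238 in shYthdf2 and 6367 to 6998 in shCtrl. Unipolar brush cell markers summed to 1554 to 1715 in shYthdf2 and 2368 to 3409.8 in shCtrl. Both of these sums separated the groups, but of the single genes only Gad1 and Eomes did. Of the 6 interneuron markers, 4 had log2 fold changes above 0 and 2 below. Astrocyte and Bergmann glia markers summed to 8839.9 to 9445 in shYthdf2 and 4752 to 10630.5 in shCtrl. Oligodendrocyte lineage markers summed to 12687 to 16663 in shYthdf2 and 4670.0 to 16435 in shCtrl. The highest shCtrl sum of both glial lists was in replicate 2. Microglia markers summed to 286 to 746 in shYthdf2 and 133 to 524 in shCtrl. Vascular and fibroblast markers summed to 3064 to 7806 in shYthdf2 and 2264 to 6531 in shCtrl. The sums for Purkinje cells were 419 to 641 in shYthdf2 and 569 to 581 in shCtrl, and those for proliferating progenitors were 210.2 to 384 in shYthdf2 and 122 to 304 in shCtrl. All markers tested of the astrocyte, oligodendrocyte, microglia, vascular and progenitor lists (6, 7, 5, 7 and 4) had log2 fold changes above 0. None of them passed an adjusted p of 0.05. Of the 4 Purkinje cell markers tested, 3 were below 0. Over all genes, 8751 of 17214 were above 0. The part of these other cells in the results below was not tested. In such bulk RNA, fewer cells of a type and less RNA per cell cannot be told apart.

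After YTHDF2 KD, Syt7 was the 1 member of the 35 tested that passed the adjusted threshold of 0.05, and it fell. Over all genes, 0.604% passed. An unadjusted p under 0.05 was reached by 10 members, or 28.6%, against 20.1% of all genes. Of these, 8 were lower in shYthdf2 (22.9% of the members, against 10.6% of all genes) and 2 were higher (5.71%, against 9.5%). The groups did not overlap for 8 members with lower values (22.9%, against 13.4% of all genes) and 3 with higher values (8.57%, against 12.6%). The median log2 fold change of the members was 0.00, beside 0.01 for all genes tested, with 18 members above 0 and 17 below. The median size of the change was 0.27 on the log2 scale, beside 0.25 for all genes. The members had a median of 5804 normalized counts, against 286 for all genes tested. Genes with more counts are measured more precisely. The shares given here for members and for all genes were not matched for count level. The count of members that passed depended on single libraries. It was 21 without shCtrl 2 (all genes 18.3%), 4 without shYthdf2 2 (all genes 4.7%) and 0 in edgeR without any other single library. An unadjusted p under 0.05 was then left for 7 members without shCtrl 1 (all genes 11.3%), shCtrl 4 (all genes 11.9%) or shYthdf2 1 (all genes 11.2%) and for 8 without shYthdf2 4 (all genes 11.7%). With the replicate block there were 16 such members, against 31.6% of all genes.

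**Figure D1:**
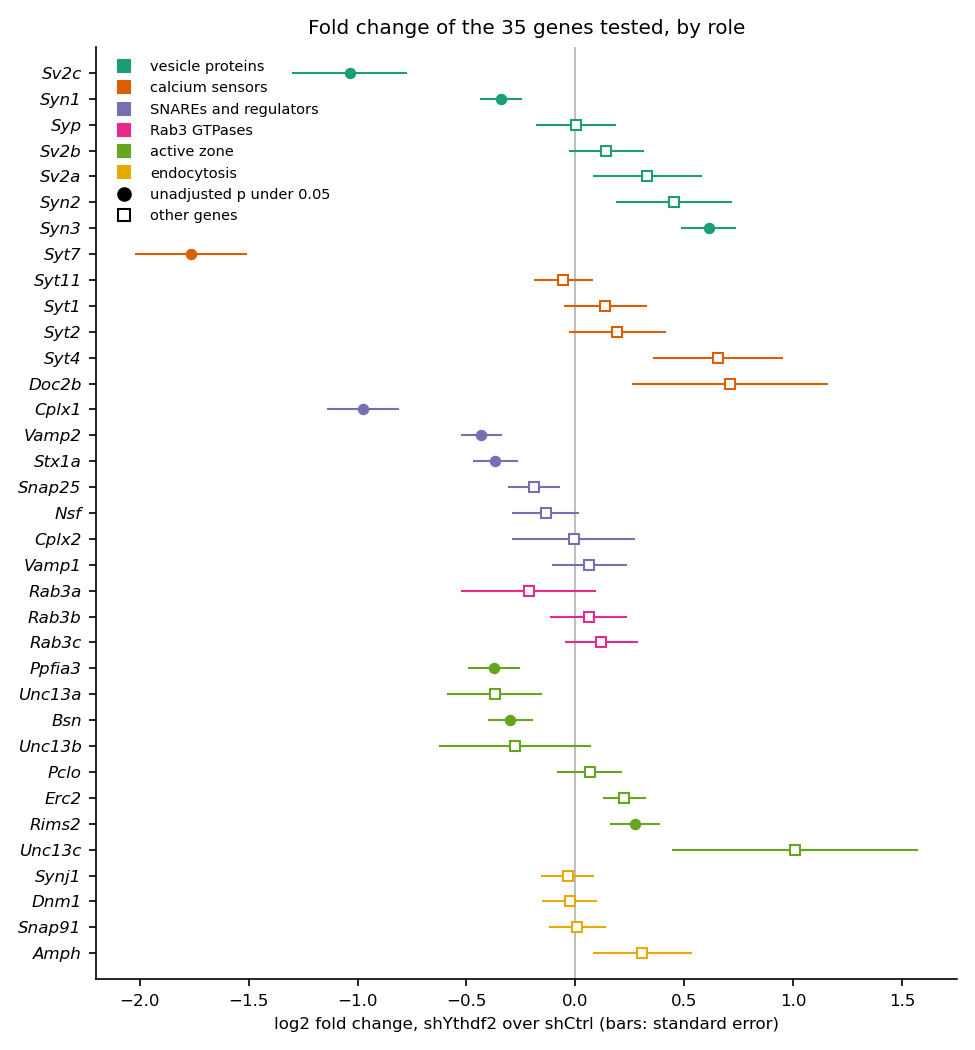
Log2 fold change of shYthdf2 over shCtrl for the 35 members tested, ordered by role, with bars for the standard error and filled circles for an unadjusted p under 0.05. Syt7 lies farthest below 0 at -1.76 and Unc13c farthest above at 1.01, with a much wider bar, and 3 of the 4 endocytic members lie within 0.1 of 0.

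To compare levels between genes, normalized counts were divided by the length of the exons in kilobases. In shCtrl the 5 highest members were Cplx1 (3877 ± 882 per kilobase, SD, n = 3), Vamp2 (3216 ± 185), Syp (2461 ± 587), Syt11 (1723 ± 164) and Syn1 (1696 ± 63.4). The Cplx1 and Vamp2 levels lay within their spread of each other. In shYthdf2 the level per kilobase was 1972 ± 124 for Cplx1 and 2383 ± 73.9 for Vamp2, with Syp at 2466 ± 333. The 2 lowest members were Rab3a, at 9.66 ± 2.14 per kilobase in shCtrl, and Rims1, at 0.134 ± 0.0145. Rims1, which encodes a central active zone scaffold, had raw counts of 3, 1 and 0 in shYthdf2 and 1, 1 and 1 in shCtrl. Rab3a, a vesicle GTPase, had 20.9, 17.5 and 17 normalized counts in shYthdf2 and 16.9, 21.3 and 26.4 in shCtrl. In the annotation, the end of Rab3a shares 29 bases with Mpv17l2 on the other strand, and Mpv17l2 had 0 counts in all 6 libraries. Whether the annotation or the counting of reads bears on the low counts of Rims1 and Rab3a was not tested. Their counts may therefore understate the level of the mRNA.

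**Figure D2:**
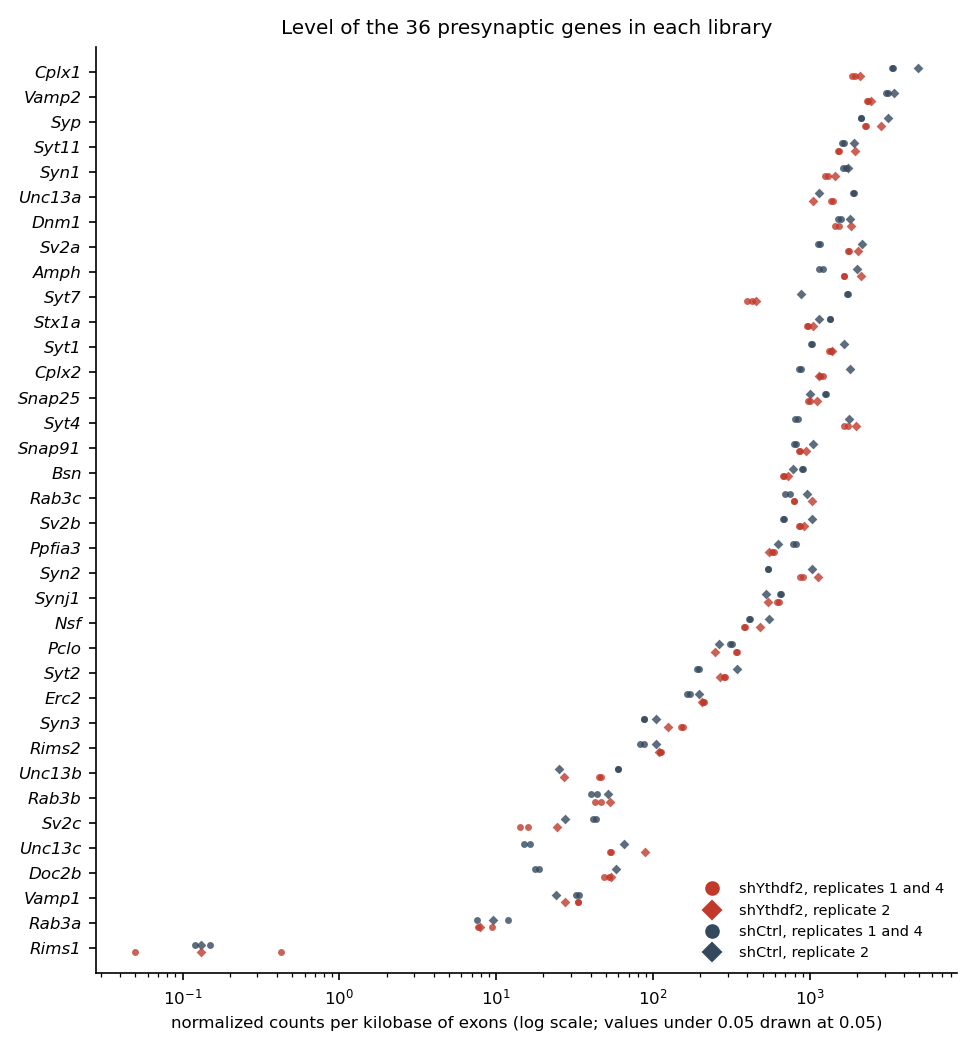
Normalized counts per kilobase of exons for the 36 members on a log scale, in order of the shCtrl mean, with 1 point per library and diamonds for replicate 2. Cplx1 and Vamp2 lead, Rab3a and Rims1 are at the bottom, and for Syt7 all 3 shYthdf2 points lie below the shCtrl points.

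Among the calcium sensors, Syt7 was the gene that passed the test. Syt7 encodes a synaptotagmin with high affinity for calcium that acts in asynchronous release, facilitation and the refilling of vesicle pools. The gene lies on chromosome 19 of GRCm38, from 10389090 to 10453180 on the plus strand. It had 2990.4, 3386 and 3224 normalized counts in shYthdf2 and 13099.8, 6577 and 12939 in shCtrl. The shYthdf2 values lay close together, and shCtrl 2 lay between them and the other shCtrl libraries. The means were 3200.1 ± 199 (SD, n = 3) in shYthdf2 and 10872 ± 3721 in shCtrl, so the KD level was 29.4% of the control, with a log2 fold change of -1.76 (SE 0.26, adjusted p = 0.0496). Within replicates 1, 2 and 4, the log2 difference was -2.13, -0.96 and -2.0. The call lay at the threshold. With the replicate number as a block, which called 1.35% of all genes, the adjusted p of Syt7 was 0.0507. It was 0.241 to 0.286 without shYthdf2 1, shYthdf2 4, shCtrl 1 or shCtrl 4, and 0.921 with replicates 1 and 4 summed as 1 sample. In other settings the gene passed, with an adjusted p of 2.02e-09 in DESeq2 and 0.000383 in edgeR without shCtrl 2. The call thus depended on the setting. The log2 fold change ranged from -2.07 to -1.60 over all alternatives. The antisense gene Gm26859, within the Syt7 gene body, had 8 to 62 counts, against at least 2860 for Syt7.

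The other 5 calcium sensors had unadjusted p-values above 0.05. Syt1 and Syt2 encode the fast sensors of synchronous release, and their log2 fold changes were 0.14 (SE 0.19) and 0.19 (SE 0.22). Syt11 was at -0.05 (SE 0.13), with 7953, 10087 and 7869 normalized counts in shYthdf2 and 8551, 9950.5 and 8404 in shCtrl. Syt4, whose protein responds little to calcium, was at 0.66 (SE 0.30). Doc2b, a soluble sensor with a role in spontaneous release, was the highest of the group at 0.71 (SE 0.45). Its normalized counts were 230.0, 236 and 211 in shYthdf2 and 77.2, 255 and 81.3 in shCtrl, so shCtrl 2 was at the shYthdf2 level and the other shCtrl libraries were far lower.

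Of the SNARE proteins and their regulators, 6 of 7 had log2 fold changes below 0, as did 8463 of the 17214 genes tested. An unadjusted p under 0.05 with lower values was reached by 3 (42.9% of the 7, against 10.6% of all genes). Cplx1 encodes complexin 1, which binds the assembled SNARE complex. It had 4073, 4609 and 4266 normalized counts in shYthdf2 and 7436, 10715 and 7308 in shCtrl, and every shYthdf2 library lay well below every shCtrl library. The shYthdf2 mean was 50.9% of the shCtrl mean (log2 fold change -0.98, SE 0.16, adjusted p = 0.0527), and within replicates 1, 2 and 4 the log2 difference was -0.87, -1.22 and -0.78. With the replicate block its adjusted p was 0.0450, which passed. It was 0.241 to 0.294 without shYthdf2 1, shYthdf2 4, shCtrl 1 or shCtrl 4, and 0.921 with replicates 1 and 4 summed as 1 sample. In DESeq2 it was 7.04e-05, and in edgeR without shCtrl 2 it was 0.0031. Cplx2, the related complexin 2, showed no such separation. Its shCtrl libraries spanned both sides of shYthdf2, with 4216, 8909 and 4335 against 5764, 5605 and 5997 normalized counts and a log2 fold change of -0.01 (SE 0.28).

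Vamp2, the main vesicle SNARE, had 8849, 9393 and 8994 normalized counts in shYthdf2 and 11689, 13041 and 12019 in shCtrl (log2 fold change -0.43, SE 0.09, adjusted p = 0.0769). Its difference was nearly equal in replicates 1, 2 and 4, at -0.40, -0.47 and -0.42 on the log2 scale. Stx1a, a plasma membrane SNARE, had 2583, 2812 and 2550.4 normalized counts in shYthdf2 and 3573, 3069 and 3607 in shCtrl (log2 fold change -0.37, SE 0.10, adjusted p = 0.12). Snap25, its partner in the plasma membrane, was at -0.19 (SE 0.12) and its groups overlapped. Nsf, the ATPase that takes spent SNARE complexes apart, was at -0.14 (SE 0.15). Vamp1, the minor vesicle SNARE here, was the highest of the group at 0.06 (SE 0.17).

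Vesicle proteins pointed in both directions. Syn3 encodes a synapsin that is known mainly from developing neurons, and it had 1852, 1528 and 1897 normalized counts in shYthdf2 and 1078, 1290.3 and 1083 in shCtrl. All shYthdf2 values lay above all shCtrl values (log2 fold change 0.61, SE 0.13, adjusted p = 0.0687). Syn1, the synapsin that tethers reserve vesicles in mature terminals, had 4145, 4807 and 4289.9 normalized counts in shYthdf2 and 5643, 5775 and 5365 in shCtrl, again without overlap but with shYthdf2 lower (log2 fold change -0.34, SE 0.10, adjusted p = 0.124). Syn2 was at 0.45 (SE 0.27) and its groups overlapped. Each synapsin gene holds a Timp gene on the other strand, and whether reads were counted by strand is not given in the sources used here. Timp3, inside Syn3, had 772 to 1067 counts, beside 986 to 1787 for Syn3.

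Sv2c is a minor member of the SV2 family of vesicle glycoproteins, and it had 155, 237 and 138 normalized counts in shYthdf2 and 399, 265 and 423 in shCtrl. The groups did not overlap, but shYthdf2 2 and shCtrl 2 were close (log2 fold change -1.04, SE 0.26, adjusted p = 0.103). Its differences within replicates 1, 2 and 4 were -1.36, -0.17 and -1.61. The gene Gm20075 lies inside the Sv2c gene body on the same strand and had 99 to 212 counts, beside 130 to 450 for Sv2c. The 3 unipolar brush cell markers also had log2 fold changes below 0, led by Eomes at -1.80 (SE 0.29, adjusted p = 0.0502), and their part in the Sv2c values was not tested. Sv2a and Sv2b, the abundant SV2 genes, were at 0.33 (SE 0.25) and 0.14 (SE 0.17). Syp encodes synaptophysin, the standard marker of synaptic vesicles. It had 11894, 14854 and 11807 normalized counts in shYthdf2 and 11064, 16352 and 11050.4 in shCtrl, with both replicate 2 libraries high and a log2 fold change of 0.00 (SE 0.18).

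**Figure D3:**
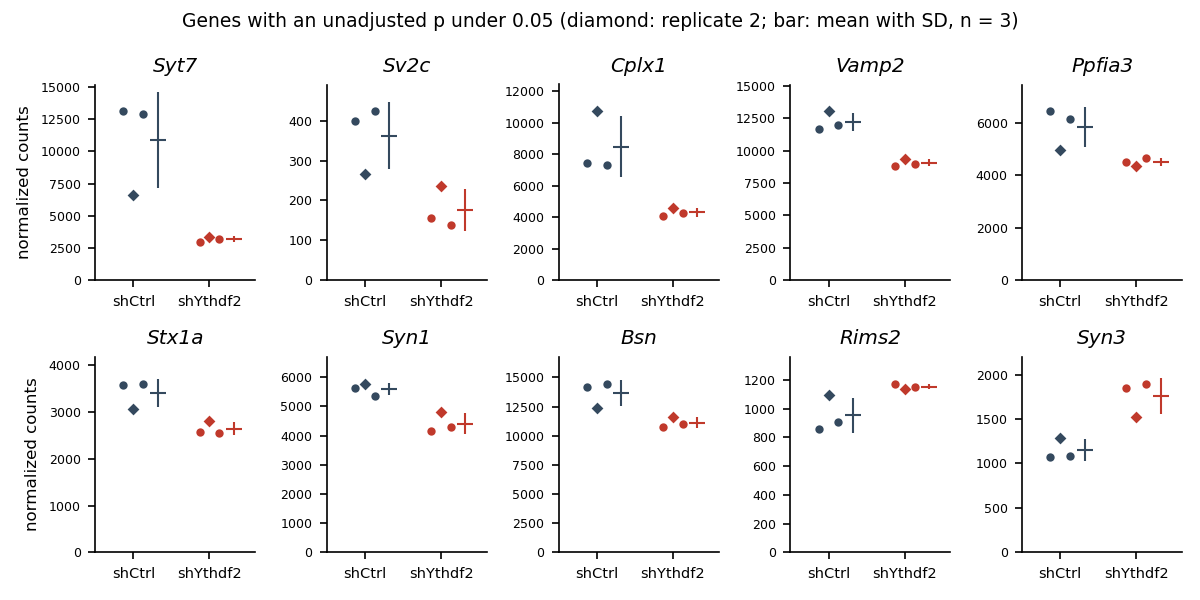
Normalized counts in each library for the 10 members with an unadjusted p under 0.05, with 1 point per library, diamonds for replicate 2, and bars for the mean with the SD of 3 libraries. The groups are separate in all 10 panels, with shYthdf2 below shCtrl in 8 panels and above it for Rims2 and Syn3.

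In the active zone, 8 of 9 members could be tested, with 4 above 0 and 4 below. Bsn encodes Bassoon, a giant scaffold, and had 10775, 11631 and 10986 normalized counts in shYthdf2 and 14209, 12394 and 14459 in shCtrl (log2 fold change -0.30, SE 0.10, adjusted p = 0.173). Ppfia3 encodes the scaffold liprin-α3 and was the lowest of the group, with 4524, 4346 and 4685 normalized counts in shYthdf2 and 6446, 4980.1 and 6144 in shCtrl (log2 fold change -0.37, SE 0.12, adjusted p = 0.149). For both genes the groups were separate, and shCtrl 2 was the shCtrl library nearest to shYthdf2. Pclo, the relative of Bassoon named Piccolo, was at 0.07 (SE 0.15).

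Rims2, a scaffold that links vesicles and calcium channels, had 1172, 1132 and 1152 normalized counts in shYthdf2 and 858, 1091 and 909 in shCtrl. All shYthdf2 values were above the shCtrl values, by little in the case of shCtrl 2 (log2 fold change 0.27, SE 0.12, adjusted p = 0.244). Erc2, which binds RIM proteins, also had separate groups, with shYthdf2 higher and an unadjusted p above the threshold (log2 fold change 0.22, SE 0.10, adjusted p = 0.258). For the Munc13 genes, which encode priming factors, the groups overlapped. Unc13a, the most abundant of them, was at -0.37 (SE 0.22), Unc13b at -0.28 (SE 0.35) and Unc13c at 1.01 (SE 0.56). Unc13c, a form typical of cerebellar GCs, had 466, 780.5 and 474 normalized counts in shYthdf2 and 133, 578 and 144 in shCtrl, so that shCtrl 2 lay within the range of shYthdf2. Within replicates 1, 2 and 4 the log2 differences had 1 sign for Unc13a, at -0.49, -0.12 and -0.41, and for Unc13c, at 1.81, 0.43 and 1.72. With the replicate block the adjusted p was 0.0875 for Unc13a and 0.0756 for Unc13c.

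The Rab3 and endocytic members had the smallest median sizes of log2 fold change, at 0.12 and 0.03. None of these 7 genes had an unadjusted p under 0.05. Rab3c had the highest log2 fold change of the Rab3 genes at 0.12 (SE 0.17) and Rab3a the lowest at -0.21 (SE 0.31). Amph, which encodes the membrane-bending protein amphiphysin, was the highest endocytic member at 0.31 (SE 0.23). The lipid phosphatase gene Synj1 was the lowest at -0.03 (SE 0.12). Dnm1, for the GTPase that cuts vesicles free, and Snap91, for the clathrin adaptor AP180, were at -0.03 (SE 0.13) and 0.01 (SE 0.13).

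Because members of a family were read from the same library, their shares do not depend on how libraries were scaled. On the scale of counts per kilobase, Cplx1 made up 61.4%, 64.9% and 61.6% of the complexin pair in shYthdf2 replicates 1, 2 and 4, and 79.9%, 73.0% and 79.1% in shCtrl. Syn1 made up 55.3%, 53.6% and 55.2% of the synapsins in shYthdf2 and 73.1%, 60.5% and 72.2% in shCtrl. In both families the groups were separate, with the share of the leading gene lower after KD. Syt7 was 7.5%, 7.5% and 8.2% of the 5 synaptotagmins in shYthdf2 and 32.2%, 13.4% and 32% in shCtrl. Syt4 had the reverse pattern, with 33.1%, 32.8% and 31.5% in shYthdf2 and 14.8%, 27.0% and 15.5% in shCtrl. Vamp2 held 98.6% to 98.9% of the Vamp1 and Vamp2 sum in shYthdf2 and 98.9% to 99.3% in shCtrl. These shares are given as descriptions and were not tested.

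**Figure D4:**
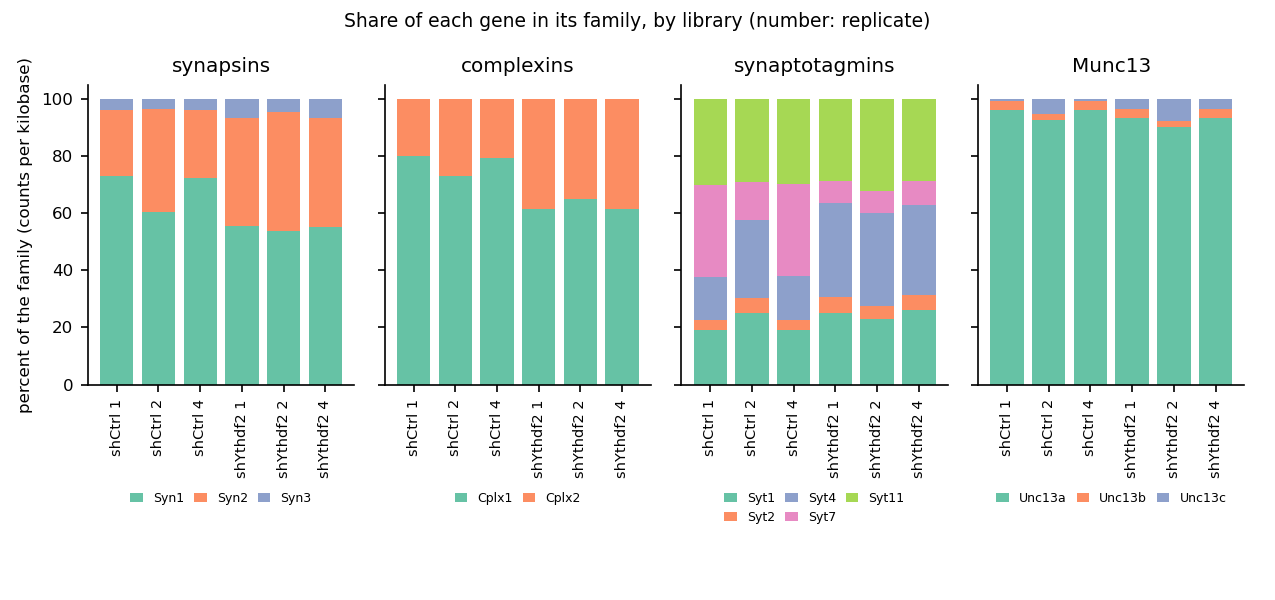
Share of each gene in its family, in percent of the family's normalized counts per kilobase of exons, with 1 stacked bar per library. The Cplx1 segment is 61.4% to 64.9% in shYthdf2 and 73.0% to 79.9% in shCtrl, and the Syt7 segment is narrow in all 3 shYthdf2 bars and intermediate in shCtrl 2.

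For several members, shCtrl 2 lay near the shYthdf2 libraries. Distances from the shYthdf2 mean were compared on the log2 scale. The shCtrl 2 value lay nearer to it than the mean of the other shCtrl libraries did for 22 of the 35 members (62.9%). The share over all genes was 51.5%. This was so for 7 of 8 active zone genes and 5 of 6 calcium sensors, but for 2 of 7 SNARE genes and 1 of 4 endocytic genes. The median size of the log2 difference between shYthdf2 and shCtrl was 0.40 within replicate 1, 0.13 within replicate 2 and 0.40 within replicate 4. Over all genes it was 0.34, 0.22 and 0.32. The glial marker sums and several GC markers above were also highest in shCtrl 2 among the shCtrl libraries, and their part in this pattern was not tested. Without both replicate 2 libraries, 30 of 35 members passed the adjusted threshold (85.7%), 17 higher and 13 lower, against 52.7% of all genes. That comparison rests on replicates 1 and 4, which are close to each other in both groups, and its shares were not matched for count level. With replicates 1 and 4 summed as 1 sample, 0 members and 0% of all genes passed in edgeR, and 4 members had an unadjusted p under 0.05, against 5.07% of all genes.

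**Figure D5:**
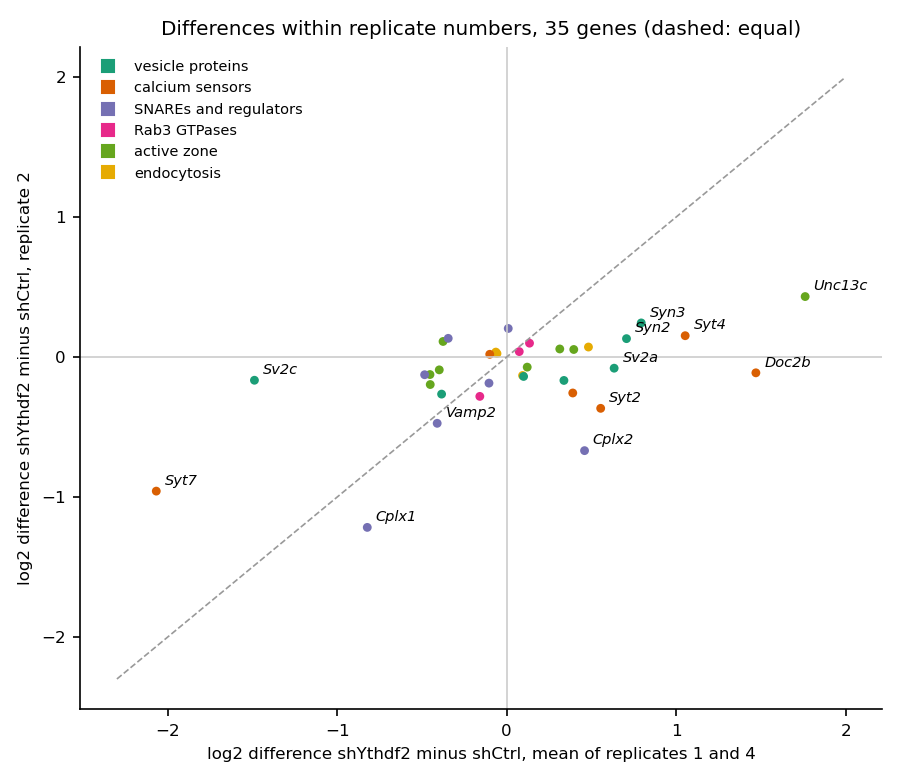
Log2 difference of shYthdf2 minus shCtrl within replicate 2 (vertical axis) against the mean of the differences within replicates 1 and 4 (horizontal axis) for the 35 members, colored by role, with a dashed line for equal values. Vamp2 lies near the line, Cplx1 is farther below 0 in replicate 2 than in the others, and Syt7, Sv2c, Unc13c and Doc2b are much nearer to 0 in replicate 2.

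The RefSeq promoters of 29 members were found in GRCm38.p6, as 37 windows from 250 bases before to 50 bases after a start. The promoters of Doc2b, Rims2, Snap25, Syn3, Syt4, Syt7 and Vamp2 were not among them. On both strands, the GC box GGGCGG occurred in 25 of 37 windows, against 35.7% of all 32851 promoters of this length. The cAMP response element TGACGTCA occurred in 1 window, that of Syn1, and in 1.79% of all promoters. The AP-1 site TGANTCA occurred in 2 windows, those of Erc2 and Syt2, and in 7.81% of all promoters. A match describes the letters of the window and not a bound site. The windows below belong to the 2 members with the largest negative log2 fold change that had an entry, Cplx1 (chr5:108549978-108550277, minus strand) and Sv2c (chr13:96132528-96132827, minus strand), and to Syn1 (chrX:20920869-20921168, minus strand), which holds the cAMP response element. Capitals mark the GC boxes in the windows of Cplx1 and Sv2c and the cAMP response element in that of Syn1.
Cplx1: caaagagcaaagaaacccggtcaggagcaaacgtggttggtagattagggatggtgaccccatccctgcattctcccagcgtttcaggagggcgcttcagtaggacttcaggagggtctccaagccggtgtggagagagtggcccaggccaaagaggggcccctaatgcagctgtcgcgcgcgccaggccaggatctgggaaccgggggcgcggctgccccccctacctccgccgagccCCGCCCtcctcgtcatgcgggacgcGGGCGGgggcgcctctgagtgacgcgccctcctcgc
Sv2c: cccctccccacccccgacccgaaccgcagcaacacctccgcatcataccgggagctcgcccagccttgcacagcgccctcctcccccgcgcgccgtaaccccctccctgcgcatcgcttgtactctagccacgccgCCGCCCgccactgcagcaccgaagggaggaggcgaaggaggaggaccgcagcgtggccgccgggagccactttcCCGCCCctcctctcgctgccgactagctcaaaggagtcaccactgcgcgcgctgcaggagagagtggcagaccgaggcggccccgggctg
Syn1: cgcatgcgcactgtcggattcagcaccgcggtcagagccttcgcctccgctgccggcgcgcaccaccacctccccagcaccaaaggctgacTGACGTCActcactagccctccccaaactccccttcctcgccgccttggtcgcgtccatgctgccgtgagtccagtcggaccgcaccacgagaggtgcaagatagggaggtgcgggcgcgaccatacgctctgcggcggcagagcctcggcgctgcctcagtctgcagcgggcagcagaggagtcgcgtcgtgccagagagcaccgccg

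A further list of 77 presynaptic genes outside these members was examined, and 73 could be tested. The median log2 fold change was -0.06, with 32 genes above 0 and 41 below. Of the genes tested, 20 (27.4%, against 20.1% of all genes) had an unadjusted p under 0.05. They were 13 with lower values (17.8%, against 10.6%) and 7 with higher values (9.59%, against 9.5%). This list had a median of 2598 normalized counts, against 286 for all genes tested, and its shares were not matched for count level either. Ap2b1 and Scamp5 passed the adjusted threshold, and both fell. Ap2b1 encodes a subunit of the AP2 clathrin adaptor and had 4512, 4617 and 4586 normalized counts in shYthdf2 and 6933, 7152 and 7354 in shCtrl (log2 fold change -0.64, SE 0.09, adjusted p = 0.0447). Scamp5, a membrane protein of secretory carriers and synaptic vesicles, had 4711, 4515 and 4771 normalized counts in shYthdf2 and 6989.9, 7791 and 7122 in shCtrl (log2 fold change -0.65, SE 0.09, adjusted p = 0.0496). In both genes the libraries of a group lay close together, replicate 2 included, and both passed with the replicate block (adjusted p = 0.0445 and 0.0450). The count of this list was 18 without shCtrl 2 (24.7%, against 18.3% of all genes), 8 without shYthdf2 2 (all genes 4.7%) and 0 in edgeR without any other single library. In those last fits 9 to 12 of its genes had an unadjusted p under 0.05, against 11.2% to 11.9% of all genes. With replicates 1 and 4 summed as 1 sample, 0 genes of this list passed in edgeR and 4 had an unadjusted p under 0.05, against 5.07% of all genes.

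The next genes by p-value did not pass. Sncb, for β-synuclein, had 2184, 3029.7 and 2299.9 normalized counts in shYthdf2 and 4236, 4101 and 4166 in shCtrl (log2 fold change -0.73, SE 0.14, adjusted p = 0.0585). Syngr3, for the vesicle protein synaptogyrin 3, was at -0.60 (SE 0.11), and Napa, for the Nsf adaptor α-SNAP, was at -0.41 (SE 0.09). The clathrin light chain gene Cltb was at -0.40 (SE 0.10), the AP2 subunit gene Ap2a1 at -0.35 (SE 0.11) and the endophilin gene Sh3gl1 at -0.34 (SE 0.09). Lin7a, for a scaffold protein, was at -0.46 (SE 0.13). The other AP2 subunit genes were at -0.27 (SE 0.10) for Ap2a2, -0.12 (SE 0.18) for Ap2m1 and -0.25 (SE 0.17) for Ap2s1. Rimbp2, for a protein that binds RIMs and calcium channels, was at 0.40 (SE 0.13), with shYthdf2 higher. Of the 20 further endocytic genes tested, 6 had an unadjusted p under 0.05 with lower values (30%, against 10.6% of all genes). With higher values there was 1 (5%, against 9.5% of all genes).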

How the data were processed

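RNA-seq was compared between 3 shYthdf2 and 3 shCtrl libraries. The deposited values are whole-number counts per gene that the authors did not normalize. By the methods, HISAT and TopHat2 were used to map reads to GRCm38, HTSeq was used to count them, and the submitters' processing notes name Bowtie 0.12.2 and mm9. The labels name a TruSeq kit and the methods an NEBNext Ultra kit, and the strand setting of the counting is not given in the sources used here. Gene IDs were matched to GENCODE M21 for 52489 of 53421 genes. There were 0 columns of other samples.

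Groups were taken from the library names in the labels, since titles and names disagree.

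Genes were kept by filterByExpr (minimum count 10, minimum total count 15) and tested with edgeR 4.0.16 (TMM, quasi-likelihood test) in R 4.3.3, with Benjamini-Hochberg adjustment over all 17214 genes tested. Normalized counts are TMM-normalized counts at the mean effective library size, and 0.5 was added before log2 differences within replicates. Libraries held 17246821 to 21546595 counts, so genes with few counts are less precise, and the SDs include counting error. The tests were checked on simulated data. The simulated libraries were independent and had no replicate effect, so the check does not cover data in which replicate 2 stands apart. Tables and plots were made with Python 3.11.15, numpy 2.4.6, pandas 2.3.3 and matplotlib 3.10.9.

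Libraries with the same number deviated together from their group means (correlations 0.252, 0.360 and 0.322 in the order 1, 2 and 4). On that ground the numbers were taken to pair the libraries. This pairing comes from the data and not from the labels. Replicate 2 stood apart in both groups, so replicates 1 and 4 share a deviation from the group mean however they are matched. The correlations therefore cannot show that 1 pairs with 1 and 4 with 4. Correlations between unlike numbers were not computed. The fit without the block was reported, because the study's methods state none. Alternatives tried were DESeq2 1.42.0, limma-voom (limma 3.58.1), RLE size factors, library size alone, the replicate block, no filter, a minimum of 10 counts per library, a term for replicate 2, both replicate 2 libraries left out, and each library left out. Summing replicates 1 and 4 was added after the data were seen.

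Values in every library were given for members with an adjusted or unadjusted p under 0.05, for members removed by the filter, and for the 5 members with the highest shCtrl level per kilobase. Others were named as the lowest or highest of a role or by range, and Doc2b, Cplx2, Unc13c, Rab3a and the remaining AP2 genes were detailed after their values were seen. Of the further presynaptic genes, those past the adjusted threshold and the 10 with the smallest unadjusted p were named. The members, gene lists and marker lists were chosen with earlier results of these data known.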

Additional observations from a re-analysis of the deposited data

How the results depend on the processing

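The fold changes of the 10 members named for their p-value and of Ythdf2 kept their direction under all 16 alternatives, and 131 of the 176 values stayed on the same side of the adjusted threshold. The median log2 fold change of the members stayed within the spread between replicate numbers under every alternative. Counts of genes past the threshold moved widely, and the cause was not tested. For the members, the further presynaptic genes and all genes, in that order, the counts were 1, 2 and 104 as reported. They were 5, 6 and 1137 with DESeq2, 4, 4 and 639 with no filter, 14, 26 and 3799 with a term for replicate 2, and 30, 46 and 9186 without both replicate 2 libraries. With limma-voom they were 0, 0 and 24, with 12, 21 and 3525 at an unadjusted p under 0.05. With replicates 1 and 4 summed as 1 sample they were 0, 0 and 0 in edgeR, with 4, 4 and 937 at an unadjusted p under 0.05. Leaving out each library in turn gave 0 to 21, 0 to 18 and 0 to 3239. The 5 members past the threshold with DESeq2 were Syt7, Cplx1, Sv2c, Syn3 and Vamp2. The replicate block gave 232 for all genes, where Syt7 lost its call and Cplx1 gained one. It changed no other call among the presynaptic genes named, Ythdf2 and Eomes. The interneuron marker Gad1 gained a call, with an adjusted p of 0.0876 in edgeR as reported and 0.0450 with the block. For Ythdf2 the log2 fold change was -0.32 without replicate 2 (adjusted p = 0.00124) and -0.56 with a term for replicate 2 (adjusted p = 0.0465), and both passed. Its adjusted p ranged from 0.00124 to 0.943 over the alternatives. Rims1 and Rab3a had too few counts in these libraries for a small change to be detectable.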
